A study of Mus musculus with 6 samples.

Results

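Genes of vesicle trafficking and membrane coats were read on microarrays of N2A cells, a mouse neuroblastoma line, after knockdown of *Kap1* (gene symbol *Trim28*), a corepressor that KRAB zinc finger proteins bring to chromatin. The genes were taken by a rule on their symbols, written with earlier results of these data known, which took in the Rab, Arf, Vps, Snx, Stx, Sec, Exoc, Trappc and dynamin series together with the COPI subunits and the subunits of adaptor complexes 1 to 5. This gave 93 genes among 5322 genes named by a single symbol, on a table of 6951 transcript clusters, a transcript cluster being the set of probes that reads a gene. Where a gene had several transcript clusters, which was so for 3 of the 93, the one with the highest mean was used. The knockdown group was 3 samples of cells that received the shA *Kap1* shRNA vector, and the control group was 3 samples that received a scrambled shRNA vector. Both groups also received a plasmid that gives hygromycin resistance, were put in hygromycin 3 days later and were grown for 7 days, and the resistant cells of a sample were harvested together as a pool rather than as a clone. The samples are called triplicates without a statement of whether they were transfected separately. The p-values therefore cover the spread between these 6 samples alone, and that spread may be technical.

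Proteins made at the endoplasmic reticulum (ER) enter its lumen through the Sec61 translocon and leave it in vesicles coated by COPII. COPI coats, recruited by Arf GTPases, carry material back from the Golgi, and tethers such as TRAPP and the exocyst, Rab GTPases and SNARE proteins bring vesicles to their target membranes. On the endocytic side, dynamins cut vesicles from the plasma membrane, and sorting nexins, retromer, ESCRT, HOPS and the adaptor complexes sort cargo between endosomes, lysosomes and the Golgi. Neurons and neuroblastoma cells use the same steps for neurites, granules and synaptic vesicles.

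*Trim28* itself had intensities of 866, 861 and 936 on the knockdown arrays, against 3377, 3443 and 3267 on the control arrays, a fall to 26.4% of the control level (log2 fold change -1.92, standard error 0.054, adjusted p = 1.3e-08 in limma). The median intensity of an array lay between 507 and 528 in the knockdown and between 505 and 553 in the control. A gene is described below as risen or fallen where its adjusted p in limma was at most 0.05 and its fold at least 1.4. Every listed transcript cluster met the first condition (100%), and on every one the 3 knockdown intensities lay apart from the 3 control intensities (100%). The table is thus a list already selected on this comparison, the adjusted p covers its transcript clusters only, and a gene outside it has no value here. Of 16 markers of sympathoadrenal neuroblastoma, the lineage of the line, 12 were listed, with a summed intensity of 22352 to 23557 in the knockdown and 24420 to 25255 in the control, and 3 of them rose and 5 fell. Of markers of other cells, 4 of 10 for fibroblasts (15288 to 15589 in the knockdown and 19377 to 20117 in the control), 1 of 6 for astrocytes (435 to 533 in the knockdown and 1097 to 1138 in the control) and 2 of 5 for Schwann cells (518 to 623 in the knockdown and 305 to 334 in the control) were listed. The fibroblast sum was mostly *Vim* (mean 12088.7 in the knockdown and 14137.0 in the control). *Pdgfrb* was higher in the knockdown (123.3 against 94.7), and the other 3 were lower. The astrocyte value was that of *Sox9* alone. Each marker, like every listed gene, had groups that lay apart, so sums that lie apart partly follow from the listing. The part of these markers in the results was not tested. In bulk RNA, fewer cells of a kind and less RNA per cell cannot be told apart.

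Most of the 93 trafficking genes lay higher in the knockdown, by small amounts. At any fold 66 (71.0%) were higher and 27 were lower, against 51.3% higher among all transcript clusters, and the median log2 fold change was 0.26 for the trafficking genes and 0.17 for all transcript clusters. Past the fold of 1.4 there were 21 (22.6%, against 32.6% of all transcript clusters). Of these 13 rose (14.0%, against 15.0%) and 8 fell (8.6%, against 17.6%). At a fold of 2 or more there were 3, *Dnm3*, *Snx18* and *Snx25* (3.23%, against 7.27%), and 67 had a fold of at least 1.2 (72.0%, against 76.3%). The 72 genes under the fold of 1.4 lay between -0.48 and 0.48 on the log2 scale, 53 of them higher and 19 lower, and no log2 fold change among the 93 was smaller in size than 0.15. The standard errors ran from 0.047 to 0.093, and as they come from a list selected on this comparison they may be too small. These shares are descriptions and were not tested against other genes. The counts by role given below rest on few genes each and were not tested either. They are to be read beside the same shares of all transcript clusters. Values near 0 are scarce on this selected list, so the median of a nearly even split, such as that of all transcript clusters, is unstable.

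**Figure D1:**
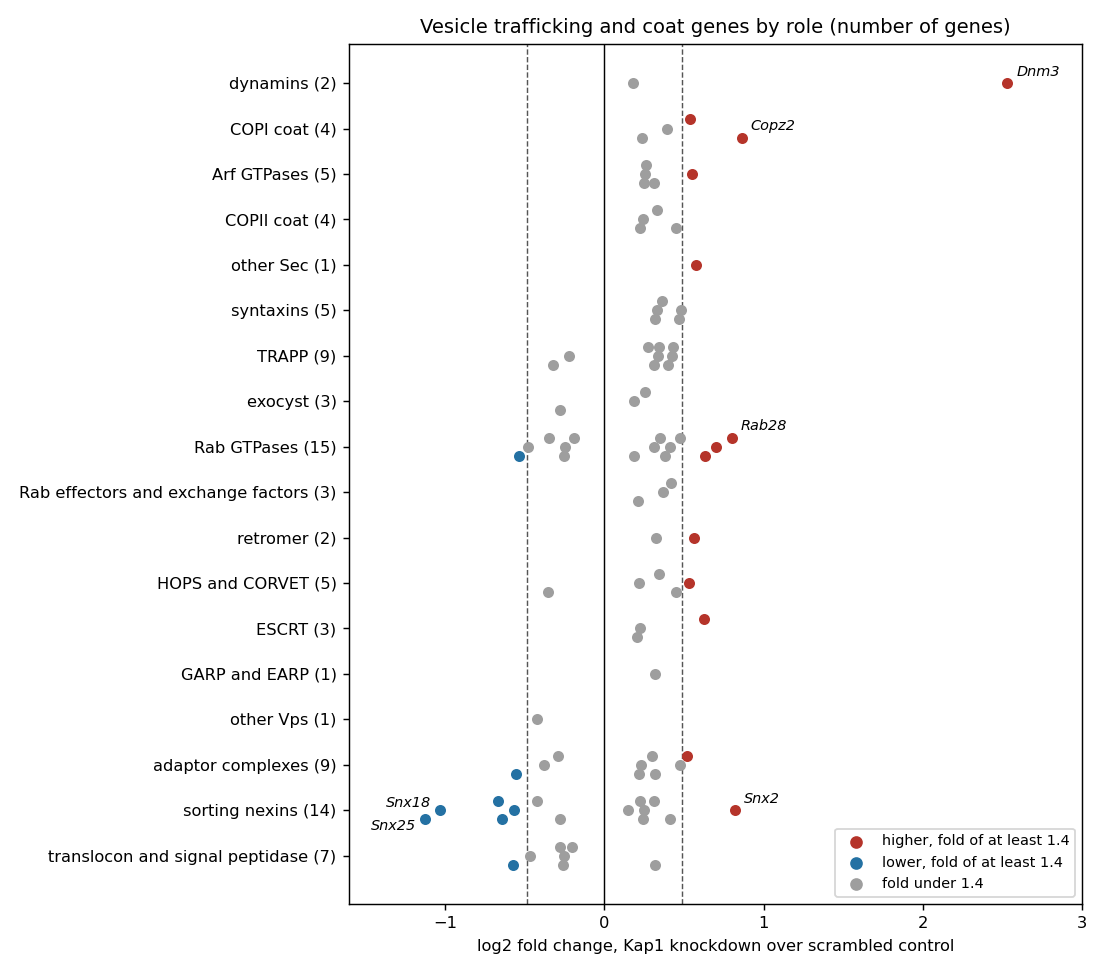
Log2 fold change (knockdown over control, horizontal axis) of each of the 93 genes, 1 point a gene, in rows by role with the number of genes in parentheses; dashed lines mark a fold of 1.4. Points of the coats, Arf GTPases and syntaxins all lie right of 0, 6 of 7 points of the translocon and signal peptidase lie left of it, and the sorting nexins lie on both sides, from -1.12 to 0.82.

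The largest change was that of *Dnm3*, a dynamin of neurons and testis. Its intensities were 355, 339 and 345 on the knockdown arrays, against 61, 57 and 62 on the control arrays. The lowest knockdown array was thus far above the highest control array, and the gene rose 5.78-fold (log2 fold change 2.53, standard error 0.053, adjusted p = 2.8e-09 in limma). *Dnm1*, the main dynamin of synaptic vesicle endocytosis, differed little, with 2189, 2281 and 2274 in the knockdown and 1979, 1948 and 2034 in the control (log2 fold change 0.18).

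At the entry to the secretory pathway, genes of the translocon and of signal peptidase were lower in the knockdown for 6 of 7 members, with a median log2 fold change of -0.26, and 1 of them passed the fold. *Sec11c*, a catalytic subunit of signal peptidase, which removes the signal sequence of entering proteins, had 326, 327 and 361 in the knockdown and 536, 512 and 464 in the control, and it fell (-0.58, standard error 0.069, adjusted p = 5.37e-05 in limma). Its paralogue *Sec11a* had 760, 786 and 770 in the knockdown and 1081, 1064 and 1048 in the control, a log2 fold change of -0.46 that stopped short of the fold. The channel subunits lay closer to the control, with *Sec61b* at -0.28, *Sec61a2* at -0.26 and *Sec61a1* at -0.25 on the log2 scale. Of the 2 partners of the channel in import after translation, *Sec63* was at -0.20 and *Sec62* at 0.32, with 596, 602 and 606 in the knockdown and 457, 499 and 490 in the control. *Sec62* was the only higher member of this group.

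Genes of the coats that form vesicles between ER and Golgi were all higher, for COPI with 2 of 4 past the fold and a median of 0.47, and for COPII with 0 of 4 past it and a median of 0.29. *Copz2*, a zeta subunit of COPI, had 676, 655 and 662 in the knockdown and 401, 376 and 323 in the control, a rise of 1.82-fold (log2 fold change 0.86, standard error 0.077, adjusted p = 8.38e-06 in limma). *Copz1*, the other zeta subunit, had 3108, 2904 and 3119 in the knockdown and 1977, 2134 and 2165 in the control, and it rose (log2 fold change 0.54, standard error 0.057, adjusted p = 2.5e-05 in limma). Both alternative zeta subunits thus passed the fold, while the gamma subunit *Copg2* (0.40) and the beta prime subunit *Copb2* (0.24) did not. In COPII, the outer coat gene *Sec31a* had 2659, 2812 and 3190 in the knockdown and 2191, 2146 and 1980 in the control (0.45). The inner coat genes *Sec23a* and *Sec24c* were at 0.33 and 0.23, and *Sec16a*, which organises ER exit sites, was at 0.24.

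Of 5 Arf GTPases, which load coats and adaptors on membranes, all were higher and 1 rose. *Arf5* had 949, 868 and 947 in the knockdown and 610, 629 and 643 in the control (0.55, standard error 0.056, adjusted p = 1.77e-05 in limma). It is also among the genes that the study lists as shared targets of *Paupar* and KAP1, a list chosen partly on these arrays and so not independent evidence of its direction. The other Arf genes were close together, with *Arf1* at 0.25, *Arf2* at 0.25, *Arf3* at 0.26 and *Arf6*, the Arf of the plasma membrane, at 0.32. *Arf1* was read by 2 transcript clusters, at 0.25 and 0.23.

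Among SNARE genes, *Sec22b*, a SNARE of transport between ER and Golgi, had 883, 886 and 948 in the knockdown and 625, 656 and 543 in the control, and it rose (0.58, standard error 0.074, adjusted p = 8.03e-05 in limma). All 5 syntaxins were higher and none passed the fold. *Stx18*, the syntaxin of the ER, lay nearest to it, with 351, 327 and 340 in the knockdown and 270, 235 and 226 in the control (0.48, standard error 0.071). *Stx6*, of the trans-Golgi network, was at 0.47, the late endosomal pair *Stx7* and *Stx8* at 0.36 and 0.32, and *Stx2*, of the plasma membrane, at 0.33. Both tethering complexes had members on either side. Of 9 TRAPP genes 7 were higher, the highest being *Trappc2l* (0.43) and *Trappc9* (0.42), and *Trappc10* (-0.22) and *Trappc13* (-0.32) were lower. *Trappc9* and *Trappc10* are both particular to the TRAPPII form, and they differed in direction, with 634, 682 and 668 in the knockdown and 504, 518 and 458 in the control for *Trappc9*, and 696, 694 and 711 in the knockdown and 848, 815 and 790 in the control for *Trappc10*. In the TRAPPIII form *Trappc8* (0.40) and *Trappc12* (0.35) were higher beside the lower *Trappc13*, and the genes of the shared core, *Trappc1*, *Trappc3*, *Trappc6a* and *Trappc2l*, were all higher, from 0.27 to 0.43. Of 3 exocyst genes *Exoc1* (0.26) and *Exoc2* (0.19) were higher and *Exoc3* (-0.28) was lower. None of these 12 genes passed the fold.

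**Figure D2:**
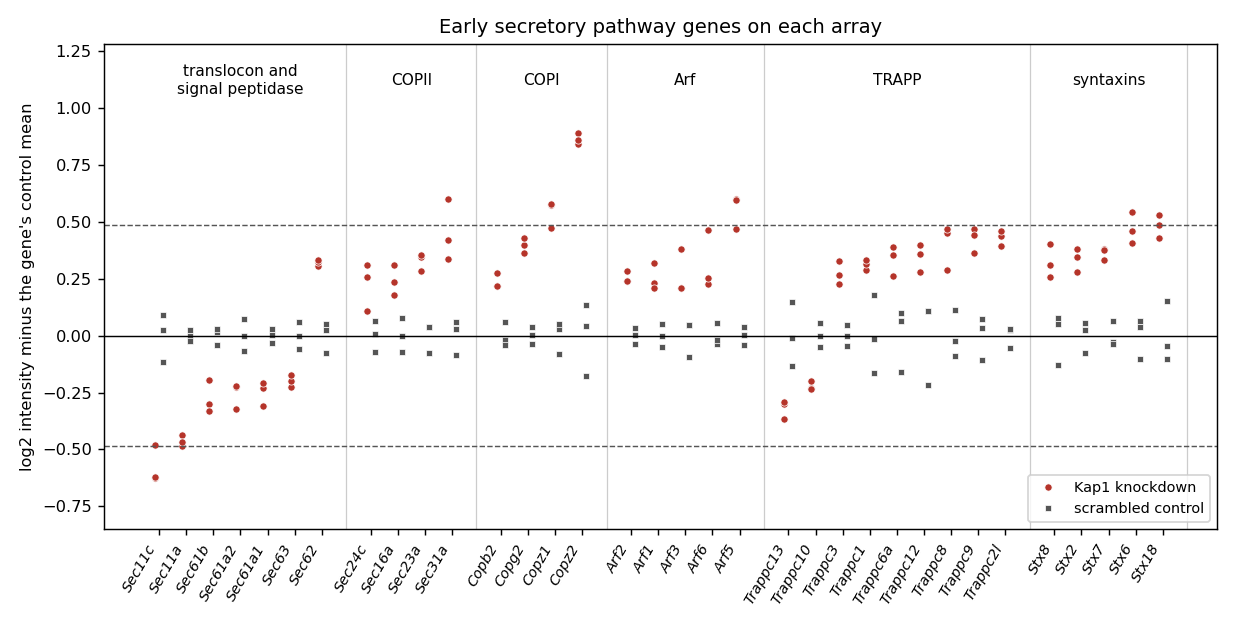
Log2 intensity on each array minus the gene's control mean (vertical axis) for 34 genes of the early secretory pathway and the syntaxins, with 3 knockdown arrays (circles) left of 3 control arrays (squares) for each gene; dashed lines mark a fold of 1.4. The knockdown arrays lie above the control arrays for every COPI, COPII, Arf and syntaxin gene and below them for 6 of 7 genes of the translocon and signal peptidase. That the groups do not overlap holds for every listed transcript cluster (100%).

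Rab GTPases, which mark membranes and recruit tethers and motors, went both ways. Of 15 genes 3 rose, 1 fell and 11 lay under the fold, 9 being higher at any fold and 6 lower. Among all transcript clusters 15.0% rose, 17.6% fell and 51.3% were higher, and the family was not tested against them. *Rab28*, a Rab known from photoreceptor outer segments, had 820, 795 and 782 in the knockdown and 444, 505 and 430 in the control (0.80, standard error 0.067, adjusted p = 5.49e-06 in limma). *Rab18*, of the ER and lipid droplets, had 393, 417 and 389 in the knockdown and 268, 252 and 220 in the control (0.70, standard error 0.075, adjusted p = 2.59e-05 in limma). The gap between groups for both exceeded the range within either group.

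The Rab3 genes, which act at secretory granules and synaptic vesicles, did not share a direction. *Rab3d* had 363, 402 and 396 in the knockdown and 268, 243 and 239 in the control, and it rose (0.63, standard error 0.064, adjusted p = 1.98e-05 in limma). *Rab3a* had 446, 473 and 521 in the knockdown and 359, 350 and 324 in the control, a log2 fold change of 0.48 under the fold. *Rab3c* was lower, with 1381, 1373 and 1351 in the knockdown and 1934, 1956 and 1829 in the control (-0.48, standard error 0.05), the last gene short of the fold on that side. The exchange factors *Rab3il1* (0.42) and *Rab3ip* (0.21) and the Rab11 effector *Rab11fip2* (0.37) were higher and under the fold.

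*Rab33a*, a Rab expressed in neurons, was dim, with 46, 46 and 46 in the knockdown and 75, 57 and 69 in the control. Before rounding, its knockdown intensities were 46.3, 46.3 and 45.6. It fell just past the fold (-0.53, standard error 0.09, adjusted p = 0.000415 in limma), and the call was lost after quantile normalization (-0.46), with a pseudocount of 16 (-0.42) and without control replicate 1 (-0.45). Among the Rab genes under the fold, the recycling Rabs *Rab11b* and *Rab35* were at -0.25 and 0.35, and the ER to Golgi pair *Rab1a* and *Rab1b* were at 0.19 and -0.19. *Rab2b*, of the Golgi, had 597, 593 and 633 in the knockdown and 514, 470 and 392 in the control (0.41). *Rab36* was at 0.38, *Rab40b* at 0.31, *Rab14*, of endosomes and the Golgi, at -0.26 and *Rab44* at -0.35.

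The sorting nexins, which bind endosomal lipids through a PX domain, held 5 of the 8 falls. Of 14 genes 5 fell, 1 rose and 8 lay under the fold, 7 being higher at any fold and 7 lower. Their median log2 fold change of -0.06 falls in the gap between *Snx33* (-0.28) and *Snx30* (0.15) and describes no single gene. Among all transcript clusters 17.6% fell and 15.0% rose, and the family was not tested against them. *Snx25* had 853, 921 and 920 in the knockdown and 2079, 1989 and 1801 in the control, so that it stood at 45.9% of the control level (-1.12, standard error 0.066, adjusted p = 5.63e-07 in limma). *Snx14* had 386, 399 and 393 in the knockdown and 664, 569 and 611 in the control (-0.64, standard error 0.063, adjusted p = 1.51e-05 in limma). *Snx25*, *Snx14* and *Snx19* belong to the sorting nexins that also carry a PXA domain. *Snx19* had 276, 297 and 273 in the knockdown and 401, 378 and 356 in the control (-0.42), so all 3 were lower and 2 passed the fold.

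*Snx18*, a sorting nexin with an SH3 domain that works with dynamin in endocytosis, had 359, 382 and 411 in the knockdown and 857, 824 and 678 in the control (-1.03, standard error 0.091, adjusted p = 7.88e-06 in limma). It was thus at 48.8% of the control level. Its relative *Snx33* had 107, 108 and 95 in the knockdown and 134, 120 and 121 in the control (-0.28). *Snx2*, a sorting nexin with a BAR domain that works beside retromer, was the only one to rise, with 1115, 1205 and 1184 in the knockdown and 738, 672 and 579 in the control (0.82, standard error 0.084, adjusted p = 1.98e-05 in limma). *Snx32*, which also has a BAR domain, fell, with 167, 186 and 192 in the knockdown and 325, 270 and 271 in the control (-0.67, standard error 0.084, adjusted p = 7.52e-05 in limma), and its close relative *Snx6* was at 0.25. *Snx15*, an endosomal sorting nexin, also fell, with 364, 397 and 413 in the knockdown and 568, 619 and 549 in the control (-0.56, standard error 0.067, adjusted p = 5.15e-05 in limma). The remaining members were higher and under the fold, from *Snx30* (0.15) to *Snx24* (0.42), with *Snx17*, which recycles endosomal cargo such as LRP1, at 0.23, *Snx21* at 0.25 and *Snx8* at 0.31.

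**Figure D3:**
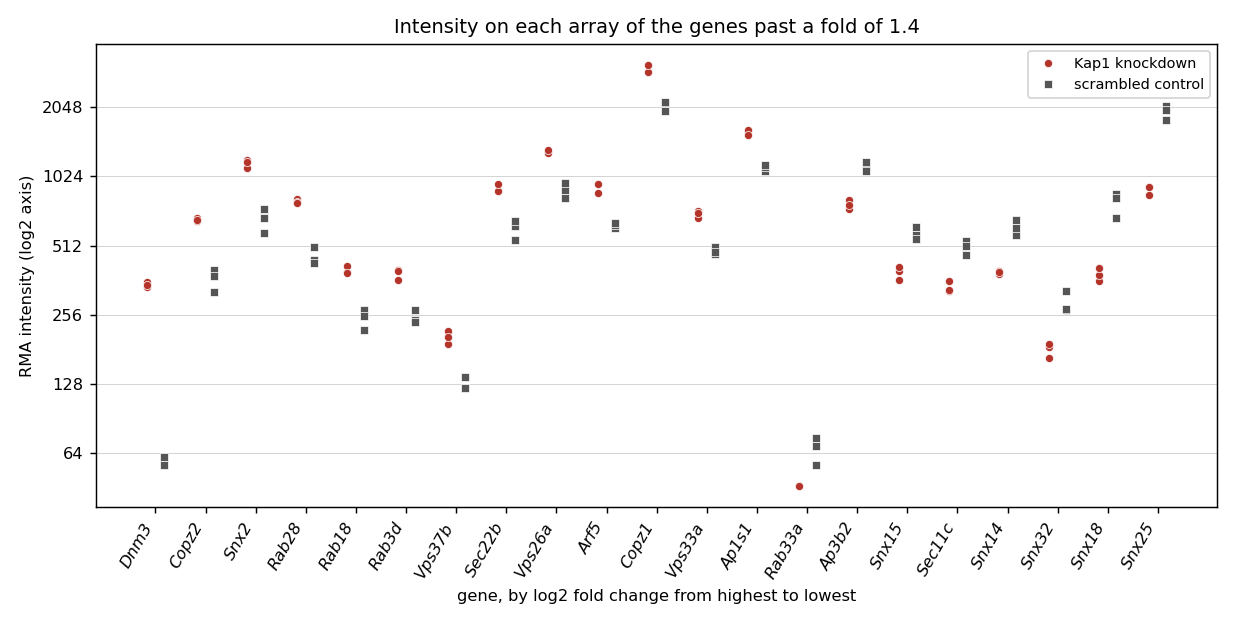
RMA intensity (vertical log2 axis) on each of the 6 arrays for the 21 genes past a fold of 1.4, ordered from the largest rise to the largest fall, with knockdown arrays (circles) left of control arrays (squares). The 2 groups are apart for every gene, as they are on every listed transcript cluster (100%). They are most widely apart for Dnm3 (339 to 355 in the knockdown and 57 to 62 in the control), and Rab33a stands at 46 on the 3 knockdown arrays.

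Retromer (2 genes), HOPS with CORVET (5 genes) and ESCRT (3 genes) had 1 rise each and no fall. Among all transcript clusters 15.0% rose and 17.6% fell, and counts of so few genes were not tested against these shares. In retromer, which returns receptors from endosomes, *Vps26a* had 1314, 1298 and 1328 in the knockdown and 890, 959 and 826 in the control (0.56, standard error 0.062, adjusted p = 3.14e-05 in limma), and *Vps29* was at 0.33. In HOPS and CORVET, which tether endosomes to lysosomes and to each other, *Vps33a* had 673, 727 and 707 in the knockdown and 504, 472 and 480 in the control (0.53, standard error 0.054, adjusted p = 1.85e-05 in limma). Their other subunits *Vps41* (0.45), *Vps11* (0.34) and *Vps39* (0.22) were higher, and *Vps33b*, the paralogue of *Vps33a*, was lower, with 729, 801 and 828 in the knockdown and 1144, 964 and 908 in the control (-0.35). In ESCRT, which forms vesicles inside endosomes, *Vps37b* had 192, 218 and 205 in the knockdown and 138, 123 and 138 in the control (0.62, standard error 0.068, adjusted p = 2.97e-05 in limma), with *Vps28* at 0.21 and *Vps25* at 0.22. *Vps53*, of the complexes that tether vesicles to the Golgi and to recycling endosomes, was at 0.32, and *Vps13c*, a lipid transfer protein, was at -0.42.

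The adaptor complexes, which pick cargo at the Golgi and endosomes, had 9 genes on the table, of which 1 rose and 1 fell. *Ap1s1*, a small subunit of AP-1, had 1612, 1627 and 1550 in the knockdown and 1079, 1119 and 1148 in the control. It rose (0.52, standard error 0.051, adjusted p = 1.55e-05 in limma) and was the gene nearest above the fold, while *Ap1s3*, another small subunit of AP-1, was at 0.30. The AP-3 subunits differed in direction. *Ap3b2*, the beta subunit of the neuronal form, had 735, 812 and 767 in the knockdown and 1135, 1081 and 1177 in the control, and it fell (-0.55, standard error 0.058, adjusted p = 2.39e-05 in limma). *Ap3m1*, a mu subunit, was at 0.47 on the transcript cluster used, with 3408, 3636 and 3575 in the knockdown and 2632, 2552 and 2464 in the control, and it rose on its other transcript cluster (0.52, adjusted p = 2.24e-05 in limma). *Ap3s1* was at 0.22 to 0.23 on its 3 transcript clusters and *Ap3d1* at -0.29. In AP-4 and AP-5, *Ap4s1* was at -0.38, *Ap5s1* at 0.32 and *Ap5z1* at 0.23.

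RefSeq promoters of GRCm38.p6, 250 bases before to 50 after a start, were found for 73 of the 93 genes, 15 of them among the 21 past the fold, and for 27025 genes in all. Both strands were searched for 4 motifs of factors that act on lysosomal and secretory genes. The E-box CACGTG was in promoters of 11 of the 73 genes (15.1%, against 8.09% of all genes), of which *Arf5*, *Vps26a* and *Vps33a* rose and *Snx18* fell. The CLEAR element GTCACGTGAC, which holds an E-box and is known from lysosomal genes bound by TFEB, was in 2 (2.74%, against 0.37%), *Vps26a* and *Vps33a*. The unfolded protein response element TGACGTGG was in 4 (5.48%, against 0.714%), *Ap5z1*, *Arf1*, *Copb2* and *Sec23a*, all under the fold, and the ER stress element, CCAAT and CCACG with 9 bases between them, was in 0 (against 0.137%). A match is a description of letters and says nothing of binding.

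The 250 bases before the start are shown for these 4 genes past the fold that hold an E-box, and for *Dnm3*, the gene with the largest rise, which held none of the 4 motifs. They are written 5′ to 3′ on the strand of the gene. Capitals mark the CLEAR element in *Vps26a* (chr10:62486806-62487055, minus strand), where it ends 175 bases before the start, and in *Vps33a* (chr5:123573016-123573265, minus strand), where it ends 5 bases before it and a further E-box stands upstream in lower case. Capitals mark the E-box in *Arf5* (chr6:28423354-28423603, plus strand), ending 64 bases before the start, and in *Snx18* (chr13:113618565-113618814, minus strand), 181 bases before it. *Dnm3* (chr1:162478035-162478284, minus strand) has no capitals.
Vps26a: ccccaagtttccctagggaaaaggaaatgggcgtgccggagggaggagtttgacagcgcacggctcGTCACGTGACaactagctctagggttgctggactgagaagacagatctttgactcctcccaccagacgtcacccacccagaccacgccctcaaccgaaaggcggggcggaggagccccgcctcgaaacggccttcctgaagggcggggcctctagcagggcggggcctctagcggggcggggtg
Vps33a: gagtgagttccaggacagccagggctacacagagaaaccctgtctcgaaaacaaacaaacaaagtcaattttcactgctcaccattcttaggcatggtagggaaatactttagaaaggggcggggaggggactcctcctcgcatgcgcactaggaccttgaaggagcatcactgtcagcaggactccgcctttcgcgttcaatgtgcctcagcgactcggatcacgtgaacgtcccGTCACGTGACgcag
Arf5: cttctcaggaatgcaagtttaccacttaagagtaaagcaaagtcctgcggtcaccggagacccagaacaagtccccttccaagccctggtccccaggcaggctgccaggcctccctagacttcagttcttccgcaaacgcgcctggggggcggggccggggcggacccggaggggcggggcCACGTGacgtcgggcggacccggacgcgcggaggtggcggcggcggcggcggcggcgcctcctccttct
Snx18: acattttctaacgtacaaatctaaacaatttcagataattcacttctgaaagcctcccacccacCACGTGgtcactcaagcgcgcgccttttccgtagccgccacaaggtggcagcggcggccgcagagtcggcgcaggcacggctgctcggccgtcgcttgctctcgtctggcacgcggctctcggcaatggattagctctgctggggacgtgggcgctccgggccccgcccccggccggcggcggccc
Dnm3: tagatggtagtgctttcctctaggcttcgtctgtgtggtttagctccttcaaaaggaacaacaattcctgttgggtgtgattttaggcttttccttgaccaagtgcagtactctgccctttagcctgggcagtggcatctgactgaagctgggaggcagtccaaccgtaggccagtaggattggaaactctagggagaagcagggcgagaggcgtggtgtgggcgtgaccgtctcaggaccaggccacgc

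Genes of the same steps whose symbols lie outside the rule were read from a list of 173, of which 70 were on the table. Of these 14 rose and 6 fell, together 28.6% against 32.6% of all transcript clusters. At any fold 50 were higher (71.4%, against 51.3%), and their median log2 fold change was 0.28, against 0.17. *Napb*, a SNAP protein of neurons that recycles SNAREs, had 1577, 1583 and 1614 in the knockdown and 781, 719 and 596 in the control, and it rose 2.29-fold (adjusted p = 2.6e-06 in limma). In the SNARE list *Napg*, *Bet1* and *Vamp3* also rose and *Snap25* fell. *Tbc1d9*, of the TBC domain family that contains GTPase activators of Rabs, had 111, 109 and 115 in the knockdown and 326, 323 and 289 in the control (-1.48, adjusted p = 5.08e-08 in limma). Partners of COPII went both ways. *Preb*, which loads the COPII GTPase Sar1, had 1161, 1273 and 1185 in the knockdown and 729, 763 and 730 in the control (0.70), and *Mia3*, a receptor for export of bulky cargo such as collagen, had 907, 925 and 895 in the knockdown and 1606, 1532 and 1407 in the control (-0.74). The cargo receptors *Tmed3* (-0.54) and *Tmed10* (-0.60) fell, while their relatives *Tmed2* (0.33) and *Tmed8* (0.19) were higher and under the fold. *Synj2*, a phosphoinositide phosphatase of endocytosis, had 153, 192 and 185 in the knockdown and 303, 289 and 278 in the control (-0.72). Of 19 Golgi tethers on the list 5 were on the table. All 5 were higher, and *Golga2* and *Golga3* rose. Of 20 partners of ESCRT on the list 12 were on the table. Of these 10 were higher and 0 passed the fold of 1.4, which 32.6% of all transcript clusters passed. In limma all 12 had an adjusted p under 0.05, as did 100% of the listed transcript clusters.

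The direction of the trafficking genes varied with their chromosome. On chromosome 5, where 88.3% of all single-symbol transcript clusters were higher, 13 of 13 trafficking genes were higher, and 4 of the 13 rises lay there, *Rab28*, *Vps37b*, *Vps33a* and *Ap1s1*. On chromosome 18 (80.8% higher) 5 of 6 were higher, with the rises of *Snx2* and *Rab18* and the fall of *Sec11c*. On chromosomes 7, 9 and 17, where 74.7%, 76.8% and 75.9% were lower, 3 of 4, 4 of 7 and 2 of 2 trafficking genes were lower, among them *Ap3b2* and *Snx14*. Of the 32 genes on these 5 chromosomes 27 lay on the side of their chromosome's median. Outside them, in a count added after the data were seen, 44 of 61 trafficking genes were higher (72.1%, against 52.8% of single-symbol transcript clusters there), and 6 rose and 5 fell, together 18% against 32.2%. The 5 chromosomes were picked by no fixed cutoff. Chromosomes 8 (69.3% lower), X (69.9% lower) and 14 (68.6% higher) stayed in this count, so it is not free of uneven chromosomes.

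With the median of its own chromosome subtracted from each log2 fold change, 53 trafficking genes lay above and 40 below it, with a median of 0.05. By that measure 24 passed the fold, but only 7 of the 21 were among them, *Dnm3*, *Copz2*, *Copz1*, *Rab3d*, *Sec11c*, *Snx18* and *Snx25*, while 14 were lost and 17 came in. The sign turned for 19 genes, all under the fold before, which then lay between -0.16 and 0.06. They included the COPII genes *Sec16a* and *Sec24c*, the syntaxin *Stx2*, *Dnm1*, *Vps29* and *Vps39*. *Rab28* was then at 0.43, *Snx2* at 0.45, *Rab18* at 0.32 and *Snx14* at -0.31. Among those that came in, *Rab3a* was at 0.75, *Vps41* at 0.72 and *Copb2* at 0.57 above their chromosome's median. A chromosome's median lay away from 0 even where the directions were nearly even, at -0.23 on chromosome 1 (46.6% higher) and 0.23 on chromosome 3 (55.2% higher). Values near 0 are scarce on a list selected on this comparison, so a small change in that share can move the median far. The genes lost, gained and turned in sign depend on this. The part of the chromosome in these results was not tested.

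**Figure D4:**
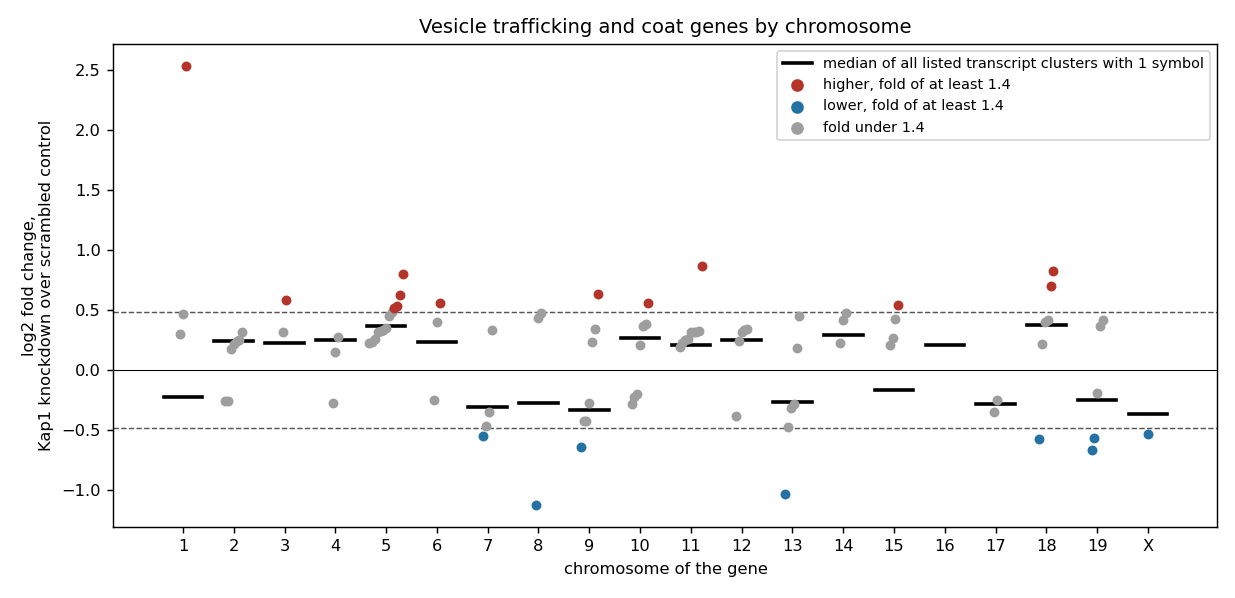
Log2 fold change (knockdown over control, vertical axis) of the 93 genes by chromosome, with the median of all listed single-symbol transcript clusters of each chromosome as a bar; dashed lines mark a fold of 1.4. All 13 genes of chromosome 5 lie above 0 around a median of 0.37, and the 2 genes of chromosome 17 lie below 0 near a median of -0.28.

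The arrays of a group were not level. Control replicate 3 was the lowest control array for 66 trafficking genes (71.0%, against 65.9% of all transcript clusters) and control replicate 1 the highest for 61 (65.6%, against 59.8%). Against the control mean, the median trafficking gene stood 0.25, 0.27 and 0.29 higher on the 3 knockdown arrays on the log2 scale, and the median transcript cluster 0.14, 0.14 and 0.16 higher. Of all transcript clusters 51.3% were higher, and values near 0 are scarce on this selected list. The median transcript cluster is therefore no measure of a shift of the arrays. The part of these differences was not tested. Under median centring, quantile normalization and without each array in turn, the median log2 fold change ran from 0.24 to 0.30 for the trafficking genes and from 0.15 to 0.19 for all transcript clusters.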

How the data were processed

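RNA (200 ng per sample) was hybridised to GeneChip Mouse Gene ST arrays, 3 for *Kap1* knockdown and 3 for the scrambled control. The deposited values are linear intensities, which the authors had normalised in GeneSpring by RMA (Robust Multi-array Average), rounded to whole numbers in the table used here. Unrounded values of the same arrays were deposited in another table. The submitters' processing notes name limma. The genome build behind the transcript clusters and the rule by which they were listed are not given in the sources used here. Of the columns of values, 0 were of no sample in this series. The number of arrays limits the precision.

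Log2 values of the intensities were fitted in R 4.3.3 with limma 3.58.1 (lmFit, then eBayes), with no block for the replicate number and Benjamini-Hochberg adjustment over all 6951 transcript clusters. Python 3.11.15, numpy 2.4.6 and pandas 2.3.3 served for the counts. Fold changes are knockdown over control. The fit was tested on simulated data. Symbols come from the platform annotation, and 93 of 93 genes matched a RefSeq gene of GRCm38.p6 by identifier, which gave chromosomes and promoters. Probes may read close paralogues.

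Genes were named by a rule: the 10 largest rises and falls, changed genes of each role, genes next to the fold limit, genes whose transcript clusters disagreed, *Arf5* from the study's shared target list, their paralogues and complex partners, and the 5 most changed related genes. Other related genes were named after their values were seen. The members and lists were chosen with earlier results of these data known. Alternatives were the unrounded table, quantile normalization, median centring, a block for the replicate number, trend and robust eBayes, a pseudocount of 16, a filter on dim transcript clusters (mean log2 intensity under 6 in knockdown and control alike), folds of 1.2 and 2, an adjusted p of 0.01, another transcript cluster per gene, subtraction of the chromosome median, and leaving out each array. Counts without the genes of 5 chromosomes were an alternative chosen after seeing the data.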

Additional observations from a re-analysis of the deposited data

How the results depend on the processing

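The counts of 21 trafficking genes past the fold, 13 risen and 8 fallen, moved with the fold limit. At a fold of at least 2 they were 3, 1 and 2, and at a fold of at least 1.2 they were 67, 47 and 20. Without the genes of chromosomes 5, 7, 9, 17 and 18 they were 11, 6 and 5. Leaving out each array in turn gave 21 to 25, 13 to 18 risen and 7 to 10 fallen, and a *Trim28* log2 fold change from -1.96 to -1.90. With the replicate number as a block the counts were again 21, 13 and 8 and *Trim28* was at -1.92. In this balanced design a block leaves every log2 fold change as it was, so only the adjusted p could have moved the counts. Deviations from the group mean correlated at -0.168, -0.132 and 0.042 between same-numbered arrays, and at -0.092 to 0.196 between differently numbered ones. With 3 arrays a group, this cannot show whether same-numbered samples were handled together. After median centring there were 25 (17 and 8) and after quantile normalization 25 (18 and 7). *Ap3m1*, *Rab3a*, *Stx18* and *Stx6*, just under the limit, passed it under both, and *Rab33a* was lost under the second of these. The unrounded table, trend and robust eBayes, the filter on dim transcript clusters and an adjusted p of 0.01 gave 21, 13 and 8. Trend and robust eBayes and the limit of 0.01 act through the adjusted p alone. In the main limma fit it was at most 0.000415 among the 21, so these 2 alternatives had little room to move the counts. The single genes run under each alternative were the 21 past the fold and *Ap3m1*, *Stx18*, *Sec11a* and *Rab3c*. None of these changed direction, but most of the alternatives could not turn a sign. Groups that lie apart on every transcript cluster keep their direction without any 1 array. The block, trend and robust eBayes, the dim filter and the limits on fold and adjusted p leave the log2 fold changes as they were. The genes were also named mostly for large changes. With the chromosome median subtracted, 14 of the 21 fell under the limit, and 19 other trafficking genes turned sign, among them the paralogues and complex partners *Dnm1*, *Snx33*, *Ap3s1*, *Vps29* and *Vps39*. These counts depend on chromosome medians of a selected list, on which values near 0 are scarce. The causes were not tested. A gene near the limit is limited by the standard error of 0.047 to 0.093 that 3 arrays a group allow.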
